A study of Rattus norvegicus with 5 samples.

Results

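The respiratory chain and the ATP synthase were followed across graded caloric restriction (CR) in the rat small intestine. The genes were taken by name: every probe set (the group of oligonucleotides that reports 1 transcript) whose annotation holds exactly 1 gene symbol, beginning with Nduf, Sdha, Sdhb, Sdhc, Sdhd, Uqcr, Cox4 to Cox8, Cyc1 or Atp5. The rule found 95 probe sets for 89 of the 10411 genes on the array that have a symbol of their own, with 41 genes in complex I, 8 in complex II, 8 in complex III, 16 in complex IV and 16 in complex V, the ATP synthase. After probe sets with weak signal were set aside, 85 probe sets for 83 genes were left, of which 72 encode subunits, 9 encode assembly factors, and *Cox7a2l* and *Atp5if1* encode a factor of the supercomplexes and an inhibitor. The 6 genes below the filter were *Cox4i2*, *Cox6a2*, *Cox6b2*, *Cox8b*, *Ndufa4l2* and the pseudogene *Cox6c-ps1*. The animals were male Wistar rats, 6 weeks old at the start, fed an AIN-93G diet in full (control) or reduced by 5, 10, 20 or 30% for 1 month and dissected after a 16 h fast, which the controls underwent too. RNA of 5 rats was pooled for each of the 5 groups and every pool went onto a single Affymetrix rat expression array. No level had a replicate, and the spread between rats cannot be seen. In whole tissue, fewer cells of a type and less RNA per cell cannot be told apart.

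Complexes I and II pass electrons from NADH and succinate to ubiquinone, complex III passes them to cytochrome c, and complex IV, cytochrome c oxidase, passes them to oxygen. Complexes I, III and IV pump protons, and the ATP synthase uses the gradient to make ATP. Part of the core of complexes I, III and IV and part of the proton channel of the ATP synthase are encoded in mitochondrial DNA, while all genes described here lie in the nucleus. The absorptive enterocyte is rich in mitochondria, since active nutrient uptake costs ATP, and these genes are also used by the smooth muscle and other cells of the gut wall.

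Nuclear respiratory genes are known for start sites that carry the letters of a few shared transcription factors. For this reason the promoters of some of the genes, picked after their values were seen, are shown first. Promoters of 80 of the 89 genes were found in the RefSeq table for build GRCr8, each with 250 bases before and 50 from the start of the gene. The letters searched on both strands were GCATGCGC for NRF1, CCGGAAGT for ETS factors such as GABPA, AAGATGGC for YY1 and TCAAGGTCA for ESRRA. Their reverse complements were counted as matches, and the NRF1 letters can match on both strands of 1 site. The windows below run from 90 bases before to 30 bases from the start, with matches in capitals. *Ndufs4*, *Ndufa6* and *Sdhc*, whose signals stood above control on all CR arrays, share the YY1 letters just after the start. *Atp5po* and *Ndufaf8*, whose signals stood below control on all CR arrays, have the YY1 letters there too. *Ndufb7*, which stood below control on all CR arrays, has the ETS letters, and *Uqcrc1*, *Cox8a* and *Atp5po* combine several of the motifs. *Ndufa6* also has the NRF1 letters, which begin 104 bases before the start and lie outside the stretch shown.
Ndufs4 promoter, chr2:47794885-47795004, minus strand: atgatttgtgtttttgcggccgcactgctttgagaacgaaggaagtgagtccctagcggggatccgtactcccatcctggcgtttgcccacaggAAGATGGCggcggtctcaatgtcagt
Ndufa6 promoter, chr7:115750288-115750407, minus strand: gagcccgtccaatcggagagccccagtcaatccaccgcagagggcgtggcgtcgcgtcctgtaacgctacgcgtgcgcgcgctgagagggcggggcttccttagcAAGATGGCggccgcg
Sdhc promoter, chr13:86097996-86098115, minus strand: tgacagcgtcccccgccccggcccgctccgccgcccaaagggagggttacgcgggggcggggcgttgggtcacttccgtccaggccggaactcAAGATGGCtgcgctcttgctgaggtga
Ndufb7 promoter, chr19:41477262-41477381, minus strand: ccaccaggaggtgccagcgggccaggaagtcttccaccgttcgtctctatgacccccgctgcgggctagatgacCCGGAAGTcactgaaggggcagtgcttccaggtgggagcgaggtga
Uqcrc1 promoter, chr8:118468133-118468252, plus strand: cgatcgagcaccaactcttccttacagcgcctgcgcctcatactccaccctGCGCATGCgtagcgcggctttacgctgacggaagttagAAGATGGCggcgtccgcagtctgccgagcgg
Cox8a promoter, chr1:213833594-213833713, minus strand: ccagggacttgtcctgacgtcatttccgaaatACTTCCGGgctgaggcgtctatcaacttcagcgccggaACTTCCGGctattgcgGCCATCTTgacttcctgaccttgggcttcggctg
Atp5po promoter, chr11:44657454-44657573, minus strand: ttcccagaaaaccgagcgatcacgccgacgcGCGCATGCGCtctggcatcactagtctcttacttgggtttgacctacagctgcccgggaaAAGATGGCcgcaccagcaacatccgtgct

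The YY1 letters stood in the promoters of 17 of the 80 genes (21.25%) and in 3.17% of all 33469 promoters of the table. For 14 of the 17, a match began between 10 bases before and 30 bases after the start. The NRF1 letters stood in 9 genes (11.25%, against 2.47% of all promoters), the ETS letters in 8 (10%, against 3.81%) and the ESRRA letters in *Atp5mc3* and *Sdhd* (2.5%, against 0.433%). Among the 21842 promoters of protein-coding genes the shares were 3.68% for YY1, 3.11% for NRF1, 4.78% for ETS and 0.366% for ESRRA. These are matches of letters and no site was tested. The 16 kept genes with the YY1 letters had a median log2 ratio (CR to control) of 0.054, −0.032, 0.10 and 0.017 at 5, 10, 20 and 30% CR, and the 8 with the ETS letters one of −0.17, −0.087, 0.087 and −0.16. For the 9 with the NRF1 letters it was −0.070, −0.062, 0.034 and −0.057, and for the pair with the ESRRA letters −0.17, −0.033, 0.23 and −0.13. Over the 4 levels, the median of the mean ratios was 0.016 with the YY1 letters and −0.022 without, −0.080 with the ETS letters and 0.001 without, and −0.051 with the NRF1 letters and −0.011 without.

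The 5 arrays correlated with each other between 0.931 and 0.952 over log2 signals. RNA integrity can be read from beta-actin, as the signal at the 3′ end over that at the 5′ end: this was 3.18 on the 20% CR array and between 2.20 and 2.41 on the others. The same ratio for *Gapdh* was 1.27 on the 20% CR array, within the 1.21 to 1.40 of the others. Of 5 markers of exocrine pancreas all but *Cela1* were strongest on the control array: the summed signal of the 5 was 536.2 on control and 239.6 to 282.9 on the CR arrays, and trypsinogen *Prss1* gave 174.3, 71.2, 2.4, 24.9 and 18.5 from control to 30% CR. Every ratio below has the same control array as its base. The part of the pancreas signal in these ratios was not tested. The tissue label was borne out by enterocyte markers, of which all 7 that had a probe set with 1 symbol were kept (*Fabp2*, *Apoa4*, *Apoa1*, *Apob*, *Slc5a1*, *Anpep* and *Rbp2*).

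No respiratory chain or ATP synthase gene passed the test for a difference between the 4 CR pools and the control pool, or for a trend over the restriction percent. The smallest adjusted p was 0.988 for the comparison and 0.998 for the trend (limma with Benjamini-Hochberg adjustment), and 0 of all 7933 probe sets kept (0% in either direction, in both fits) passed. At an unadjusted p under 0.05, *Ndufs4* was the 1 gene of 83 above control and none was below, while 2.71% and 2.05% of all kept probe sets were above and below. In the trend, *Cox7a1* was the 1 gene with a rising slope at an unadjusted p under 0.05 and none had a falling slope, against 1.55% and 1.54% of all kept probe sets. The single control pool and 3 residual degrees of freedom limit these fits: standard errors of the mean log2 ratio ran from 0.124 for *Uqcr10* to 0.256 for *Sdhaf4*, so a miss does not show that a gene was equal in all groups. Shares of all kept probe sets are not given for the fits with an array left out. The counts that follow can therefore not be set against a background. Without the 30% CR array, 4 genes had a rising and 3 a falling trend at an unadjusted p under 0.05 (limma). Without the 5% CR array 2 had a rising one. Without the 20% CR array, 1 gene lay below control at an unadjusted p under 0.05.

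The signals of these genes moved little between arrays. The log2 range over all 5 arrays stayed under 0.5 for 73 of 83 genes (88.0%), against 60.7% of all kept probe sets, whose median signal on the control array was 148.2, against 1724.5 for the 83 genes. The mean log2 ratio of the CR arrays to control lay between −0.23 (*Ndufb7*) and 0.48 (*Ndufs4*), which is 0.851-fold and 1.40-fold. A log2 ratio of 0.5 (1.41-fold) at a level was taken as a threshold of size, which 78 of the 83 genes reached at no level. At 5% CR, 0 genes passed it in either direction, against 5.62% of all kept probe sets upward and 3.84% downward. At 10% CR, 0 passed upward (4.73% of all) and *Ndufaf7* passed downward (3.45%). At 20% CR, *Ndufs4* passed upward (3.95%) and *Sdhaf4* downward (6.15%), and at 30% CR, *Ndufa6* and *Cox7a1* passed upward (7.51%) and 0 downward (5.61%).

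**Figure D1:**
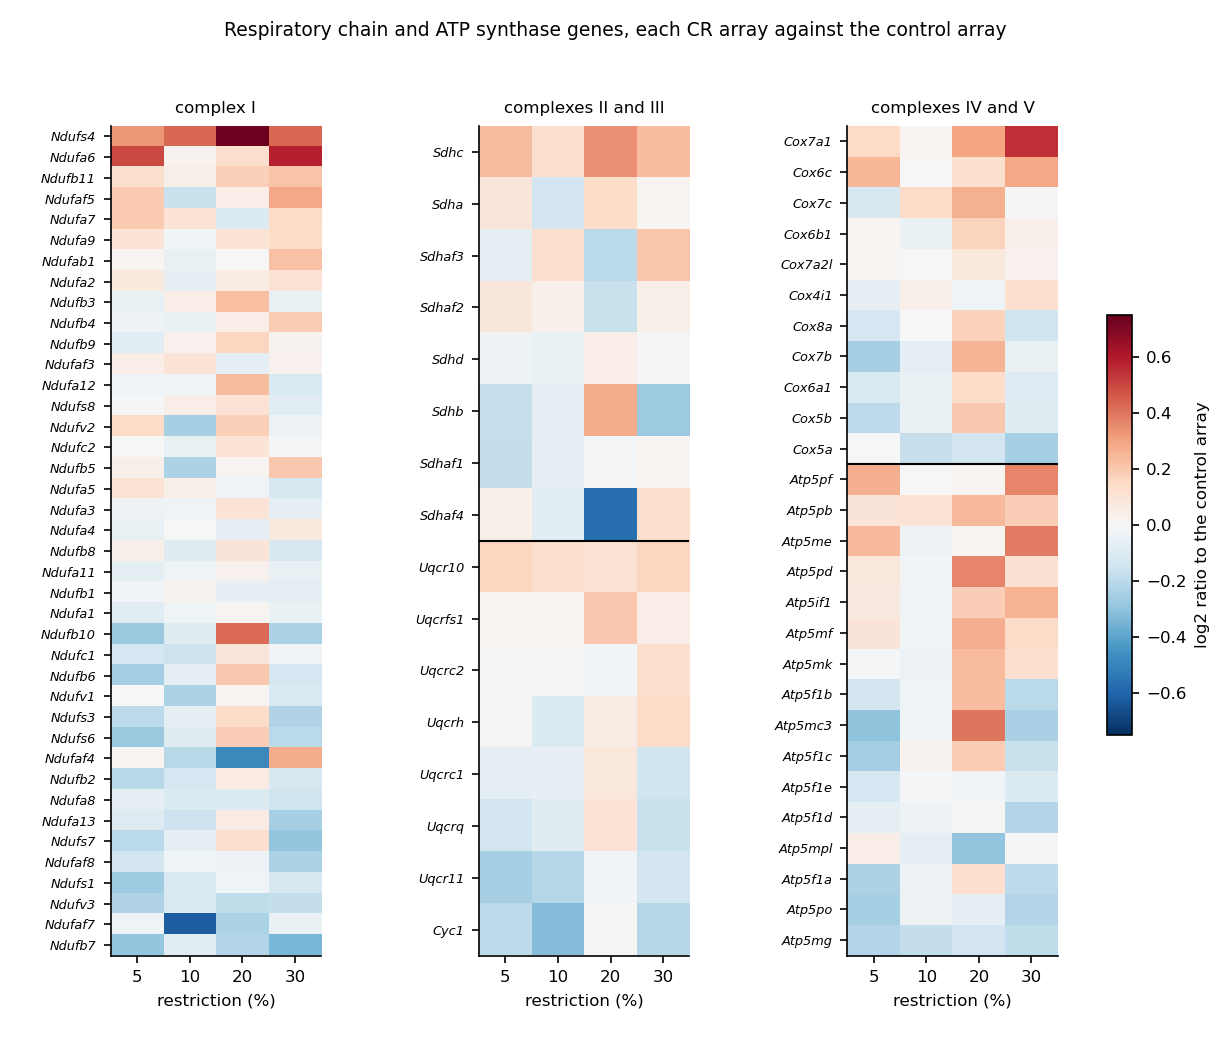
Log2 ratio of each CR array to the control array (colour) for the 83 genes kept, 1 probe set per gene and 1 array per level, with genes ordered within each complex by their mean ratio; a black line parts complex II from III and complex IV from V. Most cells are pale, the darkest being *Ndufs4* at 20% CR (0.74), *Ndufaf7* at 10% CR (−0.62), *Ndufa6* at 30% CR (0.58) and *Sdhaf4* at 20% CR (−0.56).

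As a group, the genes lay slightly below control at 5, 10 and 30% CR and above it at 20% CR. Their median log2 ratios were −0.037, −0.044, 0.080 and −0.036 at the 4 levels, beside 0.005, 0.006, −0.030 and 0.001 for all kept probe sets. At 10% CR, 61 of the 83 genes (73.5%) were below control, against 48.8% of all kept probe sets. The same held for 58 genes after quantile normalization (69.9%, against 50.1% of all) and for 65 after median centring of the arrays (78.3%, against 52.2%). By mean signal, 26 of 34 of these genes at 2000 or more were below control (76.5%, against 34.3% of the other kept probe sets), 20 of 27 between 1000 and 2000 (74.1%, against 50.9%) and 8 of 11 between 300 and 1000 (72.7%, against 54.7%). Between 100 and 300 it was 4 of 8 (50%, against 50.7%), and under 100 all 3 genes were (against 43.3%). The middle 50% of the 83 genes at 10% CR ran from −0.090 to 0.007 on the log2 scale. At 5% CR 48 genes (57.8%, against 49% of all) and at 30% CR 47 genes (56.6%, against 49.8%) were below control. On the 10% CR array the summed markers of smooth muscle (7 of 7 kept, 12483.4 against 11317.2 on control, *Actg2* alone being highest at 20% CR), of Paneth cells (4 on the array, 2 kept, 4246.7 against 2501.6) and of macrophages (2 on the array, both kept, 374.8 against 202.3) were also at their highest. So were those of skeletal and heart muscle (6 on the array, 1 kept, 155.1 against 148.0) and of blood (2 on the array, 1 kept, 573.0 against 535.1). Within these lists the kept *Ckm* and *Hbb*, and *Myl1* and *Myh7* below the filter, were highest at 10% CR. *Tnnt2*, *Actn3* and *Alas2*, also below the filter, were lowest there. The part of all these markers in the shift was not tested.

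At 20% CR the genes stood above control in 58 of 83 cases, 25 being below (30.1%, against 54.4% of all kept probe sets), and the 20% CR array gave the highest signal of the 5 for 44 (53.0%, against 21.2%). The 30% CR array was the highest for 21 of them (25.3%, against 22.6%). The pattern of lower at 5 and 30% CR but higher at 20% CR was shown by 30 genes (36.1%, against 11.6%), 15 of them in complex I, 5 in complex IV and 5 in complex V. This pattern depended on the scaling and went with signal strength. After quantile normalization the median at 20% CR was −0.011, the 20% CR array was the highest for 22 genes (26.5%, against 23.7% of all) and 16 genes had the pattern (19.3%, against 13.3%). After median centring, which moved all kept probe sets at 20% CR to a median of 0.022, it was the highest for 52 (62.7%, against 28.2% of all). With signals as deposited, 25 of the 34 genes with a mean signal of 2000 or more were highest at 20% CR (73.5%), and so were 152 of the 216 other probe sets of that strength (70.4%). Between 1000 and 2000 the shares were 48.1% of 27 genes and 41.8% of 318 others. The summed signal of the 7 enterocyte markers kept was also highest on this array, at 15246.7, against 10491.0 to 11272.2 on the others. Of these markers *Rbp2* alone was not highest there, with 4553.2 on control and 4474.6 at 20% CR. The 3′ to 5′ ratio of beta-actin was also highest on the 20% CR array, but not that of *Gapdh*. The part of the markers and of RNA quality in the pattern was not tested.

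**Figure D2:**
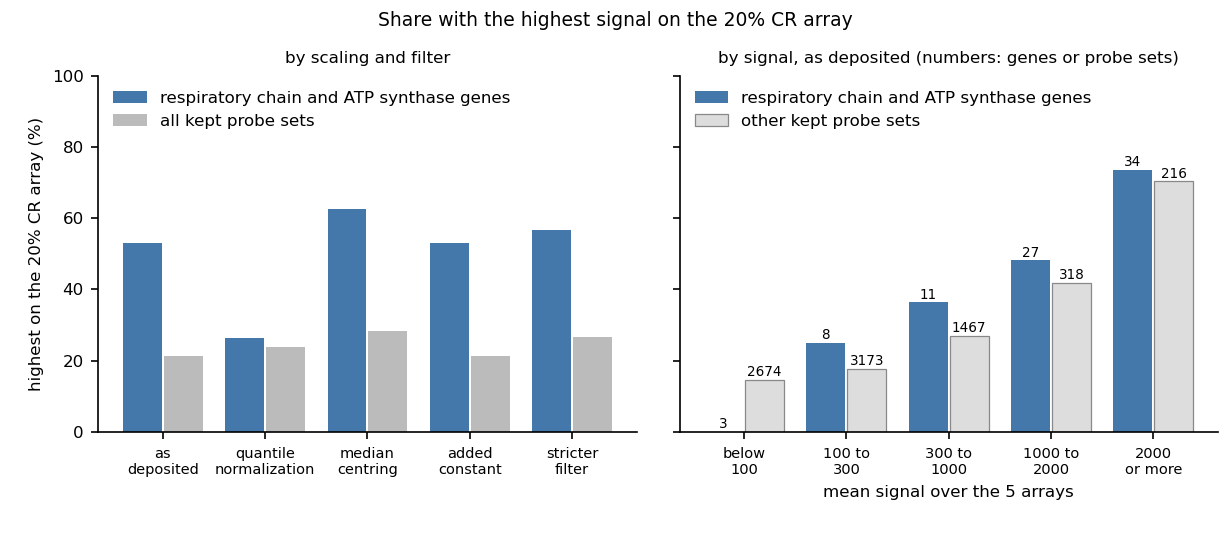
Share of genes or probe sets with the highest of 5 signals on the 20% CR array. Left, respiratory chain and ATP synthase genes (blue) and all kept probe sets (grey) under each scaling or filter: 53.0% and 21.2% as deposited come to 26.5% and 23.7% after quantile normalization. Right, the same share by mean signal as deposited, with the number of genes or probe sets over each bar: at 2000 or more it was 73.5% and 70.4%.

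The complexes were not tested against each other. At 5, 10, 20 and 30% CR the median log2 ratios were −0.033, −0.061, 0.058 and −0.055 for complex I, −0.002, −0.059, 0.022 and 0.030 for complex II, and −0.033, −0.077, 0.069 and −0.044 for complex III. Those of complex IV were −0.063, −0.003, 0.17 and −0.017, and those of complex V −0.039, −0.032, 0.15 and −0.057. The median at 20% CR was the highest of the 4 levels in complexes I, III, IV and V with the deposited scaling, whereas after quantile normalization those of complexes I, II, III and V were below control (−0.005, −0.060, −0.055 and −0.016) and that of complex IV was 0.044. Assembly factors are counted here, 5 of the 40 genes in complex I and 4 of the 8 in complex II. At 20% CR the median of those 4 was −0.18. It was 0.21 for *Sdha* and *Sdhb* and 0.20 for *Sdhc* and *Sdhd*, all highest on that array. After quantile normalization these medians were −0.13, 0.065 and 0.060. Each complex held genes on both sides of control. Mean ratios were above control for 18 of 40, 3 of 8, 4 of 8, 6 of 11 and 7 of 16 genes from I to V.

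**Figure D3:**
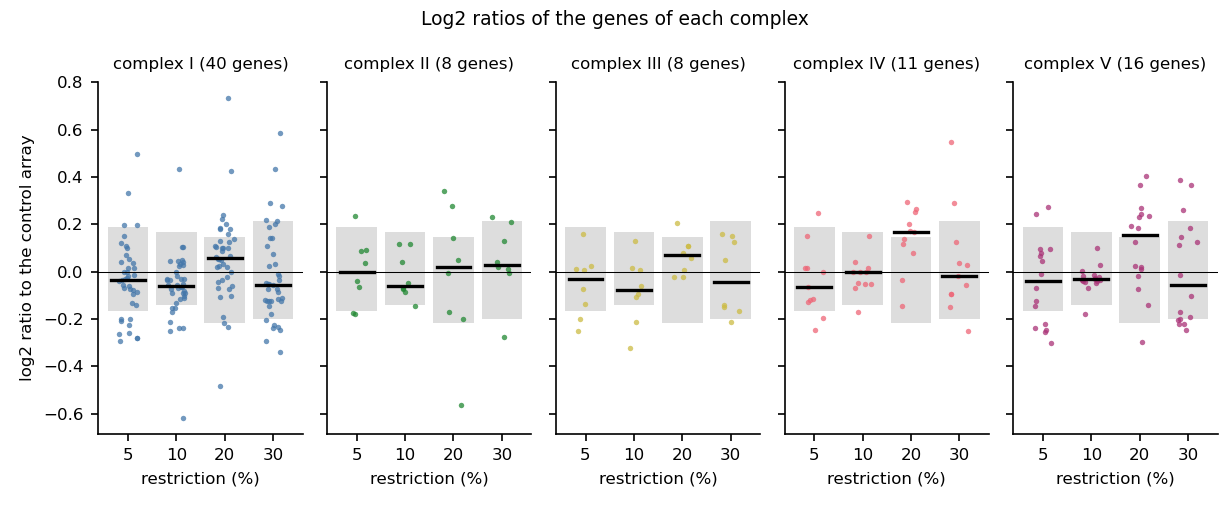
Log2 ratio to the control array at each CR level for the genes of complexes I to V (points, spread sideways for sight), with the median of the complex (black line) and the middle 50% of all 7933 kept probe sets (grey band). Most points lie within or close to the grey bands. The medians of all complexes but II stand highest at 20% CR (0.17 in complex IV and 0.15 in complex V). Of the 8 genes of complex II, 4 encode assembly factors, with a median of −0.18 at 20% CR.

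Of the 83 genes, 9 were above control on all 4 CR arrays (10.8%, against 19% of all kept probe sets) and 10 were below on all 4 (12.0%, against 20.6%). The 9 were *Ndufa6*, *Ndufb11*, *Ndufs4*, *Sdhc*, *Uqcr10*, *Uqcrfs1*, *Cox7a1*, *Atp5pb* and *Atp5pf*, and the 10 were *Ndufa8*, *Ndufaf7*, *Ndufaf8*, *Ndufb7*, *Ndufs1*, *Ndufv3*, *Uqcr11*, *Atp5f1e*, *Atp5mg* and *Atp5po*. After quantile normalization 8 were above and 19 below. *Ndufa6*, *Ndufb11*, *Ndufs4*, *Sdhc* and *Atp5pb* stayed above, and *Ndufa8*, *Ndufaf7*, *Ndufb7*, *Ndufv3*, *Atp5mg* and *Atp5po* below, under all 4 scalings tried. Without the 10% CR array 22 genes were above control on the remaining 3 (26.5%, against 24.0%), and without the 20% CR array 36 were below (43.4%, against 27.6%).

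**Figure D4:**
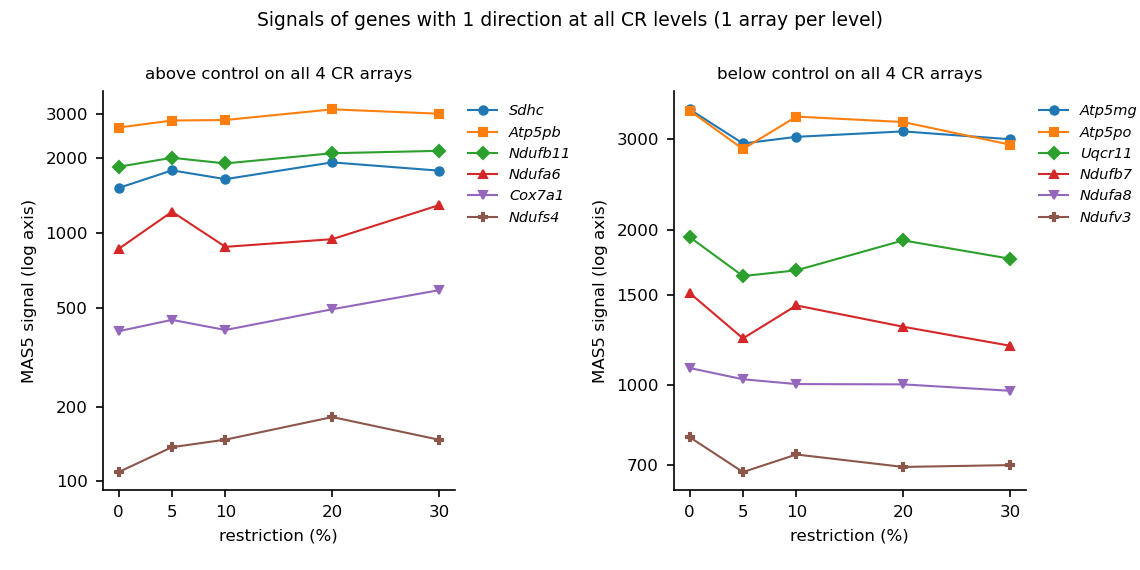
MAS5 signal (log axis) by restriction percent, 1 array per level, for 6 genes above control on all CR arrays (left) and 6 below it (right). *Ndufs4* runs from 109.1 on the control array to 181.6 at 20% CR, and *Ndufb7* from 1511.1 to 1193.8 at 30% CR.

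In complex I, *Ndufs4* had the highest mean ratio of all 83 genes, though *Ndufa6* was higher at 5% CR and *Ndufa6* and *Cox7a1* at 30% CR. It encodes an accessory subunit near the NADH-oxidizing tip of the enzyme that is needed for its stability. Its signal on the control array was 109.1, and it was 137.4, 147.3, 181.6 and 147.2 at 5, 10, 20 and 30% CR. All CR arrays were above control, the 20% CR array most. The mean log2 ratio was 0.48 ± 0.20 (SE, 4 CR arrays against 1; adjusted p = 0.988, unadjusted p = 0.037, limma). It was 0.40 to 0.53 with any CR array left out and 0.49 after quantile normalization. The signal was weak, and with the stricter filter on signal the probe set was no longer tested.

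*Ndufa6* encodes an accessory subunit of the matrix arm that holds the mitochondrial acyl carrier protein, the product of *Ndufab1*. *Ndufa6* gave 861.9 on control and 1216.4, 878.5, 943.2 and 1292.3 on the CR arrays, so that the 5 and 30% CR arrays stood well above the other 3. Its mean log2 ratio was 0.31 ± 0.21 (SE; adjusted p = 0.988, limma). *Ndufab1* gave 1964.7, 1985.5, 1887.2, 1962.4 and 2288.4, with only the 30% CR array apart. *Ndufb11*, of the membrane arm, gave 1844.2, 2004.5, 1902.3, 2090.8 and 2137.8 (mean log2 ratio 0.14).

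*Ndufb7*, an accessory subunit on the intermembrane side of the membrane arm, had the lowest mean ratio. Its signal was 1511.1 on control and 1233.6, 1429.1, 1299.5 and 1193.8 on the CR arrays, all below control, with a mean log2 ratio of −0.23 ± 0.14 (SE; adjusted p = 0.988, limma). *Ndufv3*, a small subunit of the NADH-oxidizing module, gave 794.3, 679.6, 735.0, 695.3 and 701.1, again with every CR array below. Its weaker second probe set gave 61.7, 40.6, 54.3, 67.6 and 41.6 and was not below control at 20% CR. *Ndufb10* had the widest range of the other membrane arm subunits, with 1491.5, 1229.8, 1400.7, 2001.8 and 1265.4, the 20% CR array alone being above control.

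The 6 core subunits measured, most of which carry the flavin or iron-sulfur clusters (*Ndufv1*, *Ndufv2*, *Ndufs1*, *Ndufs3*, *Ndufs7* and *Ndufs8*), were all below control at 30% CR, with log2 ratios from −0.29 (*Ndufs7*) to −0.036 (*Ndufv2*). At 5 and at 10% CR 5 of the 6 were below, and at 20% CR 5 were above. Of all kept probe sets 49%, 48.8%, 54.4% and 49.8% were below control at 5, 10, 20 and 30% CR. Of all 83 genes 57.8%, 73.5%, 30.1% and 56.6% were, so the direction was not particular to the core subunits. Their medians were −0.11, −0.093, 0.12 and −0.12 with the deposited scaling and −0.093, −0.080, 0.031 and −0.11 after quantile normalization. *Ndufs1*, the largest of them, gave 699.8, 582.8, 646.1, 683.2 and 642.8. None of the differences passed the test (adjusted p of 0.988 or above, limma).

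*Ndufa4* was found as a complex I subunit and is now placed in complex IV. It gave 1963.7, 1889.9, 1961.8, 1864.3 and 2066.0, a range of 0.15 on the log2 scale. Its relative *Ndufa4l2*, known from hypoxic cells, was below the filter with signals of 24.6, 23.5, 26.9, 22.6 and 12.8.

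Complex II, succinate dehydrogenase, also serves the tricarboxylic acid cycle. *Sdhc*, which anchors the enzyme in the membrane together with *Sdhd*, gave 1515.4 on control and 1783.7, 1644.7, 1920.9 and 1779.2 on the CR arrays, all above control. The mean log2 ratio was 0.23 ± 0.13 (SE; adjusted p = 0.988, limma), and 0.20 after quantile normalization. Its partner *Sdhd* gave 2108.9, 2050.4, 2040.5, 2184.6 and 2097.9, a mean log2 ratio of −0.011. A weaker second kept probe set of *Sdhd* gave 1367.4, 1312.8, 1239.8, 1581.2 and 1209.0, a mean log2 ratio of −0.042. It varied more, with 0.21 at 20% CR and −0.18 at 30% CR. Both *Sdhd* probe sets were below control at 5, 10 and 30% CR, where *Sdhc* was above it. The brighter one was at −0.008 at 30% CR, and at 0.004 at 5% CR after quantile normalization. *Sdhc* and both *Sdhd* probe sets had their highest signal at 20% CR.

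The flavoprotein *Sdha* gave 1758.4, 1871.2, 1589.7, 1938.1 and 1781.5. The iron-sulfur subunit *Sdhb* gave 3257.8, 2889.1, 3104.5, 3949.8 and 2694.9, below control at 5, 10 and 30% CR. Both had their highest signal on the 20% CR array, where *Sdhb* stood 0.28 above control on the log2 scale. After quantile normalization the median of the pair there was 0.065 in place of 0.21.

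In complex III, *Cyc1* encodes cytochrome c1, which hands electrons to cytochrome c. It gave 2629.2 on control and 2291.8, 2102.7, 2644.9 and 2271.2, so that the 5, 10 and 30% CR arrays were below control and the 20% CR array was level with it. The mean log2 ratio was −0.18 ± 0.15 (SE; adjusted p = 0.988, limma). The Rieske iron-sulfur protein gene *Uqcrfs1* gave 2334.3, 2371.8, 2360.5, 2690.7 and 2417.9, above control throughout but by no more than 0.051 on the log2 scale except at 20% CR (0.20). After median centring its ratio at 10% CR was −0.001.

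The small subunits of complex III diverged. *Uqcr10* gave 2250.5, 2516.1, 2461.2, 2425.5 and 2513.1, with log2 ratios from 0.11 to 0.16, the most even of the genes above control. After quantile normalization its ratio at 20% CR was −0.063. *Uqcr11* gave 1938.8, 1629.1, 1671.3, 1910.0 and 1760.1, below control at all levels, though after median centring it was 0.030 above at 20% CR. *Uqcrq* (2432.9, 2215.1, 2281.6, 2624.9 and 2171.2), the hinge protein *Uqcrh* (2571.9, 2583.6, 2391.3, 2675.3 and 2855.5) and the core protein *Uqcrc2* (1724.5, 1737.0, 1735.4, 1698.5 and 1878.8) lay on both sides of control.

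Complex IV has tissue forms of several subunits, and for subunits IV, VIa, VIb and VIII only the common form passed the filter. *Cox4i1*, *Cox6a1*, *Cox6b1* and *Cox8a* had control signals of 3563.5, 2520.2, 2696.5 and 4202.8, while the partner forms known from lung (*Cox4i2*), heart and skeletal muscle (*Cox6a2* and *Cox8b*) and testis (*Cox6b2*) were below the filter, with signals of no more than 43.7 on any array. Signals of different probe sets are not on a common scale, so the pairs say which forms were detected clearly and not by how much they differ. *Cox4i1* gave 3410.8, 3662.6, 3481.8 and 3887.0 on the CR arrays, *Cox6a1* 2323.8, 2427.9, 2770.3 and 2359.7, *Cox6b1* 2727.0, 2604.5, 3025.9 and 2768.7, and *Cox8a* 3847.3, 4195.3, 4728.9 and 3792.5. *Cox6a1*, *Cox6b1* and *Cox8a* had their highest signal at 20% CR and *Cox4i1* at 30% CR.

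*Cox7a1*, the form of subunit VIIa known from heart and skeletal muscle, had the highest mean ratio in complex IV, though *Cox6c* was higher at 5% CR and *Cox7c* at 10% CR. It gave 402.2 on control and 446.7, 406.7, 492.8 and 588.0 at 5, 10, 20 and 30% CR. All CR arrays were above control, the 10% CR array by only 0.016 on the log2 scale (−0.001 after median centring) and the 30% CR array by 0.55. The slope was 0.17 ± 0.055 per 10% restriction (SE; adjusted p = 0.998, unadjusted p = 0.010, limma) and 0.13 without the 30% CR array. Markers of smooth muscle, the muscle of the gut wall, were lower at 30% CR than on control: the summed signal of the 7 kept was 9013.6, 12483.4, 10236.7 and 8837.1 on the CR arrays, against 11317.2 on control. Of 6 markers of skeletal and heart muscle 5 were below the filter on all arrays, and the sixth, creatine kinase *Ckm* gave 63.7, 45.8, 80.7, 67.2 and 52.8. Their part in the *Cox7a1* values was not tested.

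*Cox7a2l*, a relative of subunit VIIa that joins complexes III and IV, was among the steadiest genes, with 933.4, 942.4, 931.7, 985.3 and 952.9. *Cox6c* gave 2945.2, 3495.9, 2945.0, 3195.9 and 3603.0, high at 5 and 30% CR. *Cox7c* gave 2482.9, 2287.3, 2752.4, 2982.5 and 2453.9, and *Cox5b*, the zinc-binding subunit, 3310.1, 2887.6, 3201.3, 3809.5 and 3105.4, both highest at 20% CR. *Cox5a* was the lowest of the complex by mean log2 ratio (−0.14), with weak signals of 95.3, 95.3, 84.7, 86.2 and 80.2, none of them above control.

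In the ATP synthase the parts of the enzyme differed in direction at 5 and 30% CR. The 5 genes of the catalytic F1 head and its central stalk (*Atp5f1a* to *Atp5f1e*, the alpha to epsilon subunits) were all below control at both levels. Their medians were −0.14 at 5% CR and −0.20 at 30% CR. Agreement of these levels was common: 6214 of all 7933 kept probe sets had the same sign at both. Of these, 3067 were below control at both and 3147 above. At 20% CR 4 of the 5 F1 genes were above control (median 0.12). *Atp5f1a* gave 3339.1, 2835.9, 3233.0, 3640.3 and 2910.7. After quantile normalization all 5 were again below control at 5 and 30% CR, with medians of −0.076 and −0.20, but the median at 20% CR was −0.039. Other kept probe sets of 2000 or more in signal had medians of −0.043 and −0.005 at 5 and 30% CR.

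Of the peripheral stalk, which holds the head against rotation, 3 of 4 genes were above control at 5 and 30% CR (medians of 0.087 and 0.15, and of 0.12 and 0.15 after quantile normalization). *Atp5pf* gave 1475.3 on control and 1781.3, 1479.4, 1498.7 and 1899.1, high at 5 and 30% CR alone. Its ratio was −0.013 at 10% CR after median centring and −0.081 at 20% CR after quantile normalization. *Atp5pb* gave 2652.3, 2830.7, 2844.1, 3139.5 and 3015.0, with all CR arrays above control (mean log2 ratio 0.16 ± 0.13, SE; adjusted p = 0.988, limma). *Atp5po*, which links stalk and head, went the other way, with 3408.5, 2870.4, 3317.7, 3238.5 and 2927.7, all CR arrays below control. No gene of the enzyme passed the test, and the difference between its parts was not tested.

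**Figure D5:**
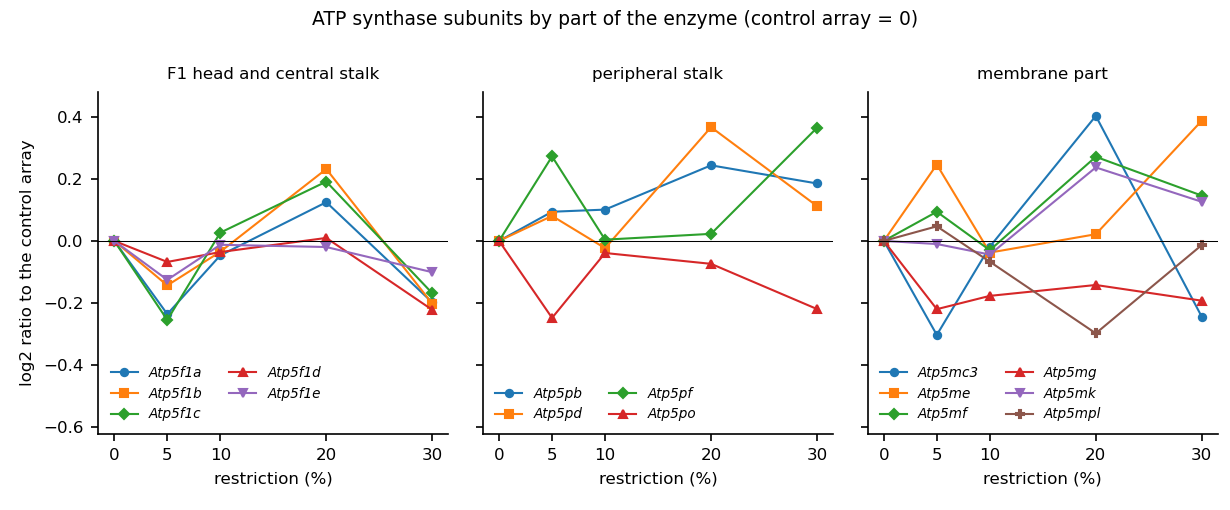
Log2 ratio to the control array (set to 0) by restriction percent for the ATP synthase subunits of the F1 head and central stalk, the peripheral stalk and the membrane part, 1 array per level. All 5 subunits of the first panel lie below 0 at 5 and 30% CR, while 3 of the 4 in the second lie above it.

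The membrane part was mixed. *Atp5mc3*, 1 of the genes for the proton-carrying c subunit, had the widest range of the complex, with 4975.1 on control and 4033.7, 4911.2, 6575.3 and 4199.7, so that the 20% CR array stood far above the rest. *Atp5mg*, the g subunit, gave 3427.1, 2942.8, 3031.5, 3106.1 and 2999.1. All CR arrays lay below control by 0.14 to 0.22 on the log2 scale, and the mean ratio was −0.18 ± 0.12 (SE; adjusted p = 0.988, limma). *Atp5me*, the e subunit, gave 792.3, 939.4, 771.9, 804.2 and 1036.1, high at 5 and 30% CR like *Atp5pf*. The inhibitor gene *Atp5if1*, whose protein stops the enzyme from splitting ATP, gave 976.0, 1021.7, 958.3, 1109.5 and 1169.1, highest at 30% CR (trend unadjusted p = 0.089, adjusted p = 0.998, limma).

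The 9 assembly factors, which help build complexes I and II and stay out of the finished enzymes, gave signals between 68.2 and 528.0. At 20% CR 8 of the 9 were below control (median −0.17, and −0.12 with 7 of 9 after quantile normalization) and none had its highest signal on that array, whereas 43 of the 72 subunits had. Of the other kept probe sets of like signal, 14.6% below 100, 17.8% between 100 and 300 and 26.9% between 300 and 1000 were highest on that array. Median log2 ratios of these probe sets at 20% CR were also below control, at −0.054, −0.056 and −0.008 in the same order. Of all kept probe sets 54.4% were below control at 20% CR. The part of signal strength in the lower values of the assembly factors was not tested. *Sdhaf4*, which binds the flavinated *Sdha* protein, gave 145.7, 149.4, 137.1, 98.6 and 159.5, low on the 20% CR array alone. *Ndufaf7*, a methyltransferase acting on complex I, gave 104.5, 102.5, 68.2, 88.8 and 100.9, low at 10% CR, and *Ndufaf4* gave 251.9, 254.6, 217.7, 180.3 and 305.5. *Sdhaf1* (523.3, 462.0, 497.5, 520.7 and 528.0) and *Sdhaf3* (105.2, 100.5, 114.2, 91.5 and 121.5), which serve the iron-sulfur subunit, stayed within 0.21 of control on the log2 scale.

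Other genes of oxidative phosphorylation were taken from a list of 64, of which 41 had a probe set with 1 symbol and 37 were kept. None passed the test in either direction. On all CR arrays 5 of the 37 were above and 5 below control, against 19% and 20.6% of all kept probe sets. The medians of the 37 were −0.055, −0.018, 0.005 and −0.032. *Slc25a5*, an ADP/ATP carrier, gave 4517.6, 4174.3, 4537.3, 5952.8 and 4459.3, and the phosphate carrier *Slc25a3* 4593.6, 4034.7, 4785.8, 5075.0 and 4167.9, both highest at 20% CR. *Gpd2*, which passes electrons from glycerol 3-phosphate to ubiquinone, gave 280.6, 216.8, 217.5, 270.5 and 169.5 (mean log2 ratio −0.38 ± 0.23, SE; adjusted p = 0.988, limma). Of the regulators, *Tfam*, which packs and transcribes mitochondrial DNA, gave 243.2, 284.8, 266.4, 251.7 and 252.6, and *Esrra* 397.6, 301.6, 449.2, 398.4 and 351.0. The coactivator *Ppargc1a* and *Yy1* were below the filter on all arrays.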

How the data were processed

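The study pooled small intestine RNA of 5 rats for each of 5 diets and measured each pool on 1 array. The deposited values are intensities: MAS5 signals on a linear scale, which the authors computed with the GeneChip Operating Software and scaled to 1 trimmed mean (the lowest and highest 2% left out) on every array. MAS5 subtracts a mismatch signal, so weak signals give wide ratios, and the scaling removes differences in total RNA.

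Signals were floored at 0.1 and taken to log2, and 57 array controls were set aside. Of 15866 probe sets, 7933 were kept, those whose mean log2 signal reached its median over all probe sets (46.5 as a signal), and each gene was read from its brightest kept probe set. Names came from the array annotation, and 0 of the members' symbols differed from the current rat gene table. A further 7 probe sets that list several symbols, 1 of them fitting the rule, were left out. Many of these genes have processed copies in the genome, and binding of such copies was not tested.

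The package limma 3.58.1 (R 4.3.3; lmFit and eBayes, prior variance following intensity) gave for each probe set the mean of the 4 CR pools less the control pool and, in a second fit, the slope on the restriction percent. Tests were two-sided, adjusted by Benjamini-Hochberg over the 7933 probe sets, with a threshold of 0.05 and 3 residual degrees of freedom, and were tested on simulated data. The p-values rest on the spread between pools, since the lone control pool has to be taken as varying like the rest. In the comparison this is the spread of 4 CR pools on different diets, so differences between CR levels count as error. Counts by size and direction have no test, and the number of arrays limits the precision.

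Members, gene lists and motifs were chosen with earlier results of these data known. Genes were named by a rule: for each complex the 3 highest and 3 lowest mean ratios and the smallest p of the trend, the Sdh subunits, *Cyc1*, the tissue isoforms, and genes whose kept probe sets have mean ratios of opposite sign. The other genes named and the promoters shown were picked after their values were seen. The settings varied were the scaling (quantile normalization or centring on the median), a constant of 13 added to each signal, the filter (none, or a mean signal of at least 146.9), the use of all or averaged probe sets of a gene, the size threshold, the variance prior, the rank of the level, and each pool left out.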

Additional observations from a re-analysis of the deposited data

How the results depend on the processing

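No paired analysis was possible because every pool came from other rats and each level has 1 array. Of the recomputed summary values 253 stayed within 1.5 times the count, or within the spread over levels, and 39 did not. No gene passed the adjusted test in any setting.

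With quantile normalization the median of all genes at 20% CR went from 0.080 to −0.011, the genes highest on the 20% CR array from 44 to 22, those lower at 5 and 30% CR but higher at 20% CR from 30 to 16, those below control at all levels from 10 to 19, those past 0.5 upward at 5% CR from 0 to 1, and those past it downward at 20% CR from 1 to 0. Without a filter on signal, the counts past 0.5 were 1 upward and 2 downward at 5% CR, 2 and 2 at 10% CR, 4 and 2 at 20% CR, and 2 downward at 30% CR. The stricter filter left 0 downward at 10% CR, 0 upward and 0 downward at 20% CR, and 0 genes above control at an unadjusted p under 0.05. With all probe sets of a gene, 1 was past 0.5 downward at 5% CR and 1 at 30% CR, both from the second *Ndufv3* probe set. At a threshold of 0.3 in place of 0.5 the counts upward and downward were 2 and 1 at 5% CR, 1 and 2 at 10% CR, 5 and 2 at 20% CR, and 5 and 1 at 30% CR, and at a threshold of 1 they were 0 at 10% CR downward, 0 at 20% CR in both directions and 0 at 30% CR upward. With a ratio of at least 0.2 required at all levels, 1 gene was above control and 0 below. The cause of these moves was not tested, apart from the filters and thresholds, which change the number of genes or the size that counts.

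With each CR array left out, the genes in 1 direction at all remaining levels numbered 9 to 22 above and 11 to 36 below control, genes below control at an unadjusted p under 0.05 numbered 0 to 1, and for the trend (control array left out as well) 1 to 4 genes had a rising and 0 to 3 a falling slope at that threshold. For the counts at that threshold no share of all kept probe sets is given. The count of genes below control at 10% CR stayed between 57 and 65 under the 4 alternatives tried. The counts of the highest array, of the pattern over levels and of genes below control at 10% CR, with their alternatives, were added after the data had been seen. Depth is not given for arrays, and the weak signals of *Ndufs4*, *Cox5a* and the assembly factors are the least certain values named.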
